A study of Mus musculus with 18 samples.

Results

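The 55 genes described here build, drive or check the mitotic machine: cyclins and kinases of mitotic entry, the spindle checkpoint, the anaphase switch, mitotic kinesins, the kinetochore, the chromosomal passenger complex, spindle bundling, cytokinesis and condensin. They were chosen by symbol, as known parts of the dividing cell, with earlier results of these data known. All 55 were present among the 54347 genes of the deposited table and were tested in every comparison. RNA was taken from mouse marrow-derived mesenchymal stem cells (MSC), adherent progenitors that can form fat and bone cells, of male C57BL/6J mice whose age is not given in the sources used here. In the first experiment MSC were left without treatment (control), or received CK666, which blocks actin branching by the Arp2/3 complex, or CytoD (cytochalasin D, which caps the growing ends of actin filaments). RNA was taken at 24 h. In the second experiment every culture was transfected, with a control siRNA (siControl), with an siRNA against Arp4 (siArp4), or with that siRNA together with CK666 (siArp4+CK666). Each of the 6 groups held 3 libraries from distinct preparations. The paper states that a primary cell line made from 6 male mice was used for all studies. The preparations were thus not separate animals, and p-values measure the spread between preparations of that line, which may be technical. A group given siControl and CK666 was not analysed here.

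A cell that enters mitosis switches on cyclin B and its kinase partner, condenses its chromosomes and captures them on spindle microtubules through the kinetochores. The spindle checkpoint holds the cell there until every chromosome is attached. The anaphase-promoting complex then destroys securin and cyclin B, the sister chromatids part, and an actin and myosin ring divides the cytoplasm. Most genes of this set are transcribed late in the cell cycle, from promoters bound by the DREAM and MuvB complexes, and a culture with more dividing cells holds more of their RNA. In bulk RNA, fewer dividing cells and less RNA per dividing cell cannot be told apart.

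Library totals ran from 18075610 to 24733212 estimated counts. Actl6a, the gene of Arp4, was at 720, 1127 and 841 normalized counts in siControl, at 48.9, 57.2 and 19.0 in siArp4, and at 9.52, 22.9 and 17.9 in siArp4+CK666, so the knockdown groups did not overlap the control siRNA. Of 16 mesenchymal stem cell markers 14 to 15 were above 0 in each library, with summed normalized counts of 114400 to 270000. The sum was 212600 to 223100 in control, 114400 to 130100 in CK666 and 195600 to 212200 in CytoD, then 117000 to 175400 in siControl, 241300 to 270000 in siArp4 and 124500 to 142400 in siArp4+CK666, and its part in the results was not tested. Of 12 haematopoietic markers 3 to 7 were above 0, with sums of 126 to 358, and of 6 endothelial markers 1 to 3, with sums of 4.08 to 25.8. Some libraries departed from their group mates in a way that followed gene length, over the 55 genes most steeply in CK666 replicate 1, siControl replicates 1 and 2 and siArp4+CK666 replicate 3. For the genes given in full, and in the 4 comparisons with a control or siControl group of the same experiment, the text names those of these libraries that change a call or a sign, or move a value by over 1.5 times, when left out. The mitochondrial share of counts was 1.43 to 1.82% in control, 1.36 to 1.88% in CK666 and 1.78 to 1.89% in CytoD, then 1.3 to 2.65% in siControl, 2.67 to 3.26% with siArp4 and 2.86 to 3.36% with siArp4+CK666. The knockdown groups lay above siControl in this share, and its part in the results was not tested.

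The RNA of the set was lower in every group given an actin drug or the Arp4 siRNA. Summed over the 55 genes, normalized counts were 152500 ± 1677 (SD, n = 3) in control, 70120 ± 868 in CK666 and 77580 ± 967 in CytoD. In transfected cells the sums were 63350 ± 3082 in siControl, 21850 ± 623 with siArp4 and 7559 ± 243 with siArp4+CK666. As a share of all counts the set took 0.739% in control, 0.349% in CK666 and 0.399% in CytoD, then 0.301% in siControl, 0.105% with siArp4 and 0.0368% with siArp4+CK666. No library of a treated group reached the sum of any library of its control group.

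The promoters of these genes share short sequence elements that the choice of genes did not use. RefSeq promoter windows (build GRCm38.p6, 250 bases before to 50 bases after the start) were at hand for 48 of the 55 genes. The letters TTTGAA, the core of the cell cycle genes homology region that MuvB binds, stood on either strand in 34 of the 48 (70.8%), against 20.2% of the 27025 genes with a window. Within 50 bases of the start they stood in 31 (64.6%), against 5.72% of all genes. CCAAT, the letters bound by NF-Y, stood in 33 (68.8%), against 41.1% of all. Both were present in 28 (58.3%), against 8.97%. The E2F letters TTCCCGC stood in 1 of the 48 windows (2.08%), against 5.29% of all.

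The 100 bases before the start are printed for 4 genes with both elements close to the start and for 2 genes that have neither element, with TTTGAA and CCAAT in capitals on either strand (TTCAAA and ATTGG when they lie on the other strand). Cdk1 (chr10:69352913-69353012, minus strand) and Kif11 (chr19:37376282-37376381, plus strand) encode the mitotic kinase and the motor that pushes spindle poles apart. Cdc20 (chr4:118437344-118437443, minus strand) and Top2a (chr11:99024190-99024289, minus strand) encode the activator of the anaphase-promoting complex and the topoisomerase that untangles sister chromatids. Nuf2 (chr1:169531465-169531564, minus strand) and Cit (chr5:115845556-115845655, plus strand) encode a kinetochore subunit and citron kinase.
Cdk1: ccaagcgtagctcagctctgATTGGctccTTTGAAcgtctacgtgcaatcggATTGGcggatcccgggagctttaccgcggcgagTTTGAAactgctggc
Kif11: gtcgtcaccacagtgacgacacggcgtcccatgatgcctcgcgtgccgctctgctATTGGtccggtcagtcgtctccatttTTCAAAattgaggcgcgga
Cdc20: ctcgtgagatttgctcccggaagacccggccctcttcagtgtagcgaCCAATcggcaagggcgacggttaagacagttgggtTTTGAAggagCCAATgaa
Top2a: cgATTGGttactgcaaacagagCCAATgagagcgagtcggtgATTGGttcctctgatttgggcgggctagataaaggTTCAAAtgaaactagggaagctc
Nuf2: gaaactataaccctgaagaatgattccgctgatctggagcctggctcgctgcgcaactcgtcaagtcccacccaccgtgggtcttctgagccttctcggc
Cit: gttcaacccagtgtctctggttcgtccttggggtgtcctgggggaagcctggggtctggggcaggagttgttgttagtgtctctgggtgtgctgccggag
The homology letters nearest the start begin at position -15 in Cdk1, -19 in Kif11, -18 in Cdc20 and -23 in Top2a, counted from the start as -1 for the base before it. In the GENCODE annotation 26 printed bases of Cdk1, 9 of Cdc20 and 12 of Cit lie in exons, and the Cdk1 letters at -15 are among them. Median log2 fold changes of genes with and without TTTGAA in the window were set side by side, with no test. They were -1.25 (34 genes) and -1.05 (14 genes) for CK666, -1.04 and -0.93 for CytoD, -1.64 and -1.65 for siArp4, and -3.36 and -3.34 for siArp4+CK666. In the other comparisons they were -0.19 and 0.03 for CK666 against CytoD, -1.65 and -1.83 for siArp4+CK666 against siArp4, -1.32 and -1.17 for siControl against control, and -0.57 and -0.80 for the interaction described further on. A match is a string of letters and does not show a bound factor. Of the 9 genes whose windows held neither element, 1 was Pttg1, the gene that departs from the set below, and Melk, Nusap1, Birc5, Mad2l1, Kif18a and Ncaph were others.

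**Figure D1:**
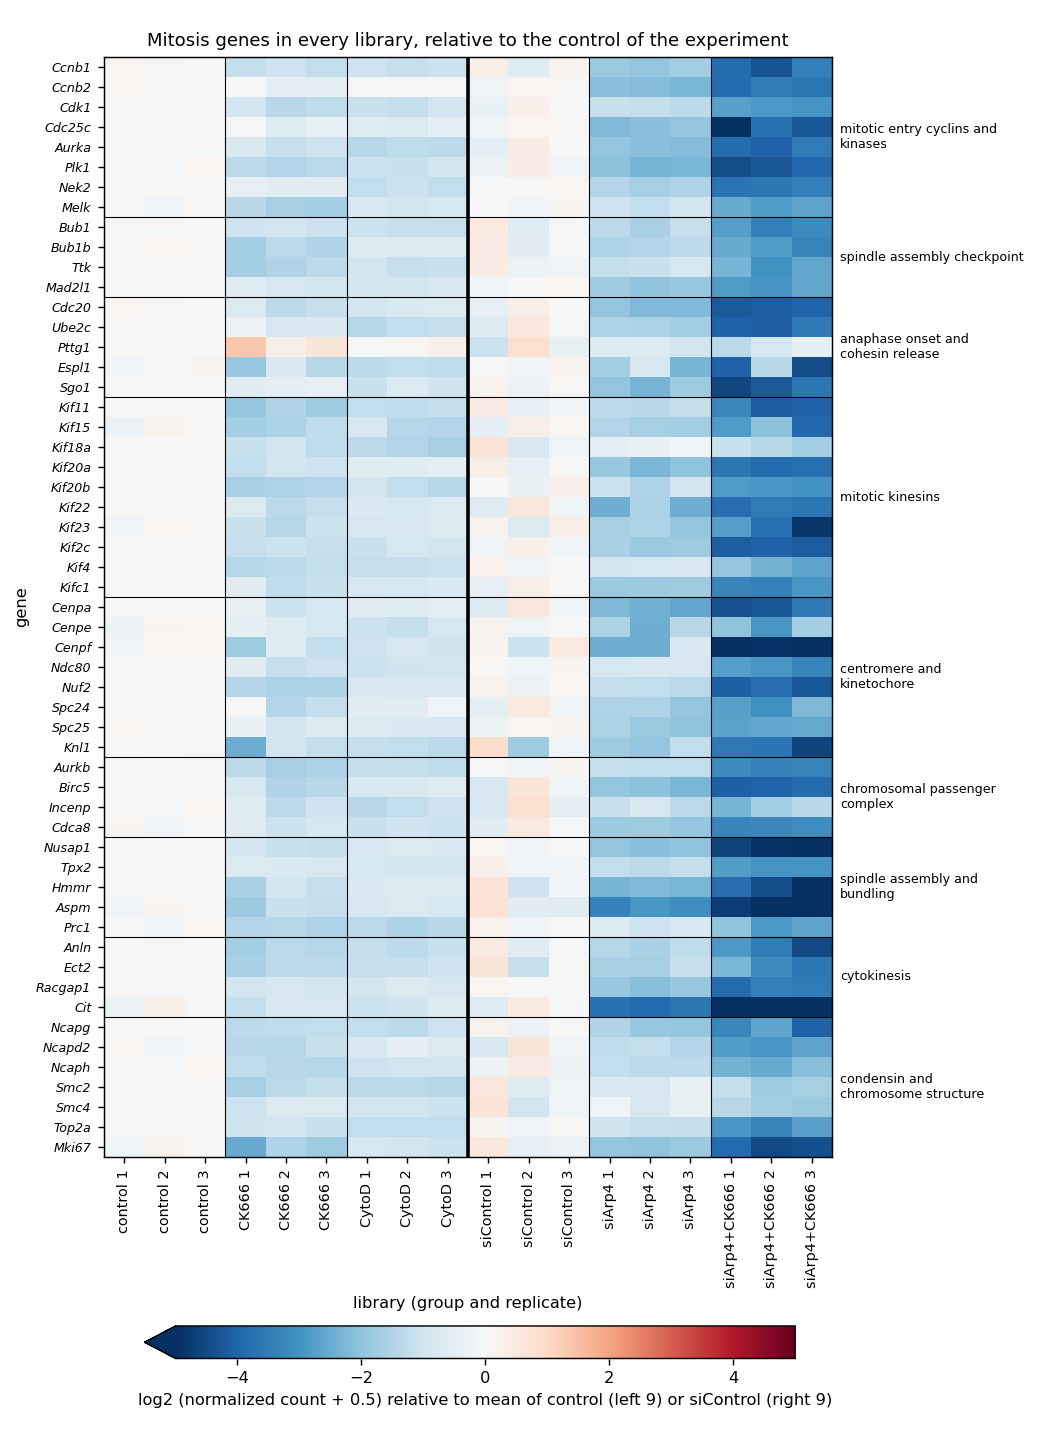
Log2 ratio of the normalized count of each of the 55 genes (rows, grouped by role) in each of the 18 libraries (columns) to the mean of the control libraries (left 9 columns) or of the siControl libraries (right 9 columns), with a pseudocount of 0.5. Blue is lower, red is higher, and values under the end of the scale take its last colour. The siArp4+CK666 libraries are the darkest, and Pttg1 is the row that is red in CK666.

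CK666 lowered most of the set. A gene was called where its log2 fold change was over 1 in size and its adjusted p was below 0.01, and 35 of the 55 genes were called lower and 0 higher, against 6.06% of all 14597 genes tested called lower and 4.89% called higher. The fall was shallow and broad, with a median log2 fold change of -1.13, which leaves 45.8% of the control level, while the median of all genes tested was 0.01. Without the fold minimum 51 of the genes were lower at adjusted p below 0.01, against 14.7% of all genes, and in 51 all 3 CK666 libraries lay under all 3 control libraries, against 23.4% of all genes. Mki67 fell most (-1.90) and 54 genes had a negative value. The exception in sign was Pttg1, at 0.81.

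CytoD, which acts on actin by another route, also lowered most of the set. Of the 55 genes 25 were called lower and 0 higher, against 4.32% of all 13717 genes tested called lower and 4.8% called higher. The median log2 fold change was -0.96, which leaves 51.4% of the control level, beside 0.01 for all genes tested. Since that median lies next to the fold minimum, the count depends on it, and 52 genes were lower at adjusted p below 0.01 with no minimum, against 16% of all genes. In 53 genes the CytoD and control libraries did not overlap, against 30% of all genes. Both drugs were compared with the same 3 control libraries, so the falls are not independent of each other.

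Set against each other, CK666 and CytoD gave no called difference in the set. None of the 55 genes was called between the drugs with DESeq2 or with edgeR, against 11.8% of all 15038 genes tested, and the median log2 difference was -0.18. At an unadjusted p below 0.05 in DESeq2, 19 genes were lower with CK666 and 9 were higher. The share of all genes at that unadjusted limit was not counted, so these counts have no background beside them. At adjusted p below 0.01 with no fold minimum 11 genes were lower with CK666 and 3 were higher, against 14.9% and 16.9% of all genes. The lower ones included Mki67 (-0.96, SE 0.21), Bub1b (-0.80, SE 0.11) and Nuf2 (-0.75, SE 0.09). The higher ones were Ube2c (0.69, SE 0.16), Nek2 (0.68, SE 0.10) and Sgo1 (0.45, SE 0.14). These 6 genes were picked out after their values were seen.

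Knockdown of Arp4 lowered most of the set as well. Against siControl 45 of the 55 genes were called lower and 0 higher, against 9.49% of all 15415 genes tested called lower and 6.69% called higher. The median log2 fold change was -1.63, which leaves 32.2% of the siControl level, beside -0.05 for all genes tested. All 55 values were negative and 48 genes had groups that did not overlap, against 21.1% of all genes. Citron kinase (Cit) fell most, by 3.74 on the log2 scale, and the value nearest 0 was -0.32, in Kif18a, which was not called. The 10 genes not called were Pttg1, Espl1, Kif18a, Kif4, Ndc80, Knl1, Incenp, Prc1, Smc2 and Smc4.

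Knockdown and CK666 together gave the lowest levels. Against siControl 54 of the 55 genes were called lower, all but Pttg1, and 0 higher, against 12.4% of all 15415 genes called lower and 8.06% called higher. In 54 genes the groups did not overlap, against 21.7% of all genes. The median log2 fold change of -3.23 leaves 10.7% of the siControl level. Against siArp4 alone 43 genes were called lower and 0 higher, against 4.12% of all 14098 genes called lower and 1.63% called higher, with a median of -1.66, and in 52 genes the groups did not overlap, against 20% of all genes. Cenpf (-3.57, SE 0.57), Nusap1 (-2.92, SE 0.24) and Nuf2 (-2.79, SE 0.22) fell most. The first 2 of these comparisons share the siControl libraries, and the last shares a knockdown group with each of them.

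**Figure D2:**
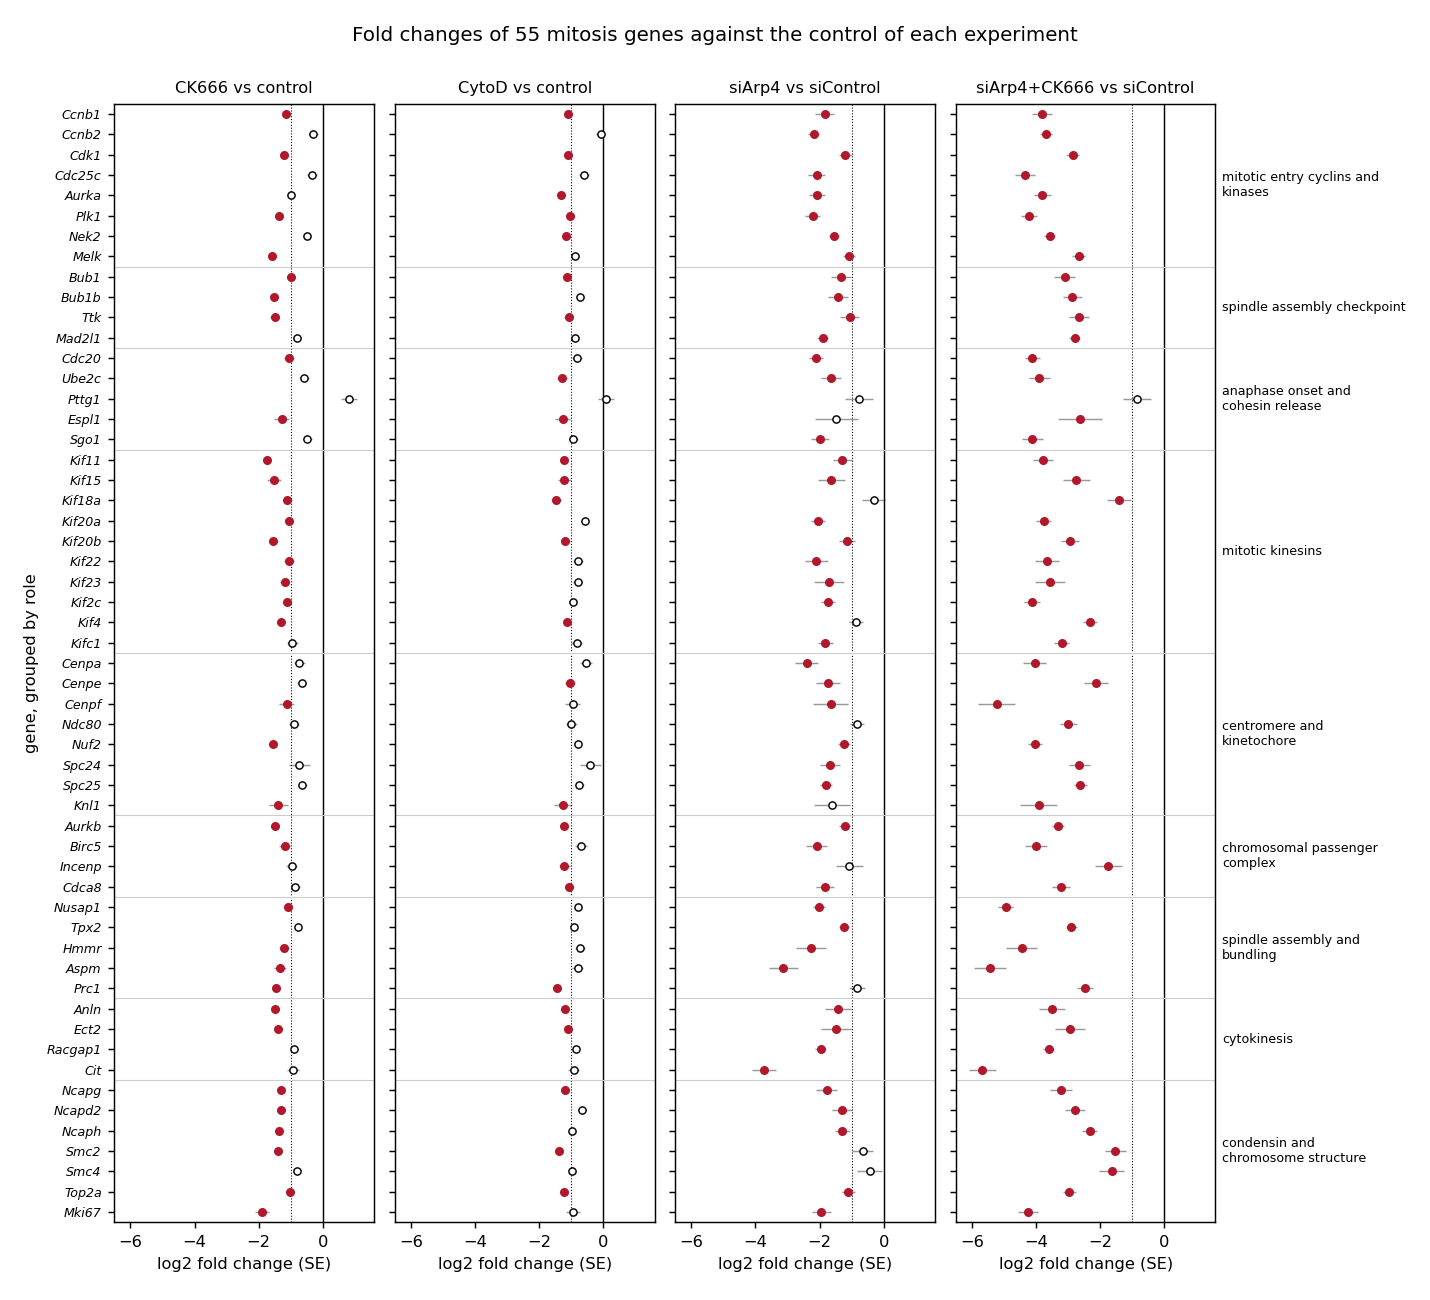
Log2 fold change (x axis, bars show the SE from DESeq2) of each of the 55 genes (y axis, grouped by role) in the 4 comparisons with a control. Filled points were called at a log2 fold change over 1 in size (dotted line at -1) and an adjusted p below 0.01, open points were not. The number of filled points grows from 25 with CytoD and 35 with CK666 to 45 with siArp4 and 54 with siArp4+CK666.

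Among the 8 cyclins and kinases of mitotic entry, 4 were called lower with CK666, 5 with CytoD, 8 with siArp4 and 8 with siArp4+CK666. Melk, a kinase of dividing cells, fell most of them with CK666, from 1147, 1020 and 1164 normalized counts in control to 423, 352 and 339, which is -1.58 on the log2 scale (SE 0.13, adjusted p 2.85e-31). With CytoD Melk was at 645, 565 and 600, which is lower than control in every library but above all CK666 libraries (-0.88, SE 0.13). In the siRNA experiment it went from 394, 371 and 448 in siControl to 196, 171 and 209 with siArp4 and 70.8, 56.3 and 64.3 with siArp4+CK666. The groups did not overlap, and the values were -1.07 (adjusted p 2.44e-07) and -2.67 (adjusted p 5.81e-35). The siArp4 value was -0.99, and no longer called, without siArp4 replicate 2, and -0.97 with the length trend removed.

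Cdc25c, the phosphatase that switches on the cyclin B kinase, moved little with the drugs alone. It had 692, 758 and 772 normalized counts in control, 694, 475 and 573 in CK666 and 470, 465 and 534 in CytoD. CK666 overlapped control through replicate 1 alone (-0.35, SE 0.16, adjusted p 0.0612, and -0.49, adjusted p 8.15e-04, without that library) and CytoD lay below it by less than the fold minimum (-0.60, SE 0.16, adjusted p 6.91e-04). In the transfected cells it fell from 320, 385 and 377 in siControl to 77.5, 84.2 and 93.2 in siArp4 (-2.09, SE 0.26, adjusted p 3.61e-14) and to 9.52, 25.8 and 17.9 in siArp4+CK666 (-4.33, SE 0.32, adjusted p 7.54e-41).

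The B cyclins parted in the first experiment. Ccnb1 fell with CK666 (-1.15, SE 0.10) and CytoD (-1.10, SE 0.10), whereas Ccnb2 kept 1648, 1203 and 1200 normalized counts in CK666 and 1609, 1572 and 1555 in CytoD against 1768, 1612 and 1599 in control. The Ccnb2 groups overlapped, with CK666 through replicate 1 alone since the other CK666 libraries lay below all control libraries, and its values were -0.30 (SE 0.14, adjusted p 0.0771) and -0.07 (SE 0.14, adjusted p 0.729). In the second experiment both fell, Ccnb2 from 1138, 1372 and 1322 in siControl to 296, 282 and 264 in siArp4 (-2.19, SE 0.17) and 85.7, 110.6 and 101 in siArp4+CK666 (-3.68, SE 0.18), with no overlap. Ccnb1 and Ccnb2 have annotated pseudogene copies that could take some of their reads. Plk1, the polo kinase, and Aurka, the aurora kinase of the spindle poles, had values of -2.22 and -2.08 with siArp4 and -4.21 and -3.81 with siArp4+CK666, and all 4 were called.

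The 4 spindle checkpoint genes were called lower in 3 of 4 cases with CK666, in 2 of 4 with CytoD, and all 4 with siArp4 and with siArp4+CK666. Bub1b, which inhibits the anaphase-promoting complex, went from 2399, 2683 and 2465 in control to 772, 983 and 886 in CK666 (-1.52, SE 0.11, adjusted p 4.21e-39) and 1561, 1522 and 1519 in CytoD (-0.71, SE 0.11). In siControl it had 1508, 753 and 1121, with siArp4 alone 387, 414 and 458, and with CK666 added 195, 158 and 112. The siControl libraries were spread over a wide range but stayed above the knockdown groups (-1.43, SE 0.30, and -2.86, SE 0.31).

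Bub1, a checkpoint kinase of the kinetochore, lay at the fold minimum with CK666. It had 2456, 2202 and 2363 in control, 1151, 1243 and 1113 in CK666 and 1121, 1051 and 1050 in CytoD (-1.002 and -1.12, SE 0.10 in both). The call with CK666 did not hold without CK666 replicate 1 (-0.988) or 3 (-0.960) or control replicate 1 (-0.967) or 3 (-0.995), with TMM scaling (-0.977), with edgeR (-0.990) and with the length trend removed (-0.984). With the siRNAs it had 1113, 518 and 777 in siControl, 326, 261 and 364 with siArp4 and 118, 75.4 and 87.5 with siArp4+CK666, with no overlap (-1.34, SE 0.32, and -3.10, SE 0.33). Ttk, the kinase that starts checkpoint signalling, had 718, 648 and 683 in control, 209, 240 and 273 in CK666 and 358, 303 and 313 in CytoD. In siControl it had 286, 180 and 196, with siArp4 alone 95.2, 103 and 119, and with CK666 added 43.4, 26.7 and 35.8. All treated groups lay under their controls, at -1.503 (SE 0.15), -1.07 (SE 0.14), -1.07 (SE 0.29) and -2.65 (SE 0.31), and the siArp4 call was lost without siControl replicate 1 (-0.84) or siArp4 replicate 1 (-0.99) or 2 (-1.04), and with edgeR (adjusted p 0.0124).

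The 5 genes of anaphase onset and cohesin release ranged from -1.28 to 0.81 with CK666. With CK666 and with CytoD 2 were called lower, with siArp4 3 and with siArp4+CK666 4. Cdc20 (ENSMUSG00000006398.15), whose promoter is printed above, had the highest level per kilobase of exon of the set in control, 1898 normalized counts per kb, against a median of 428 over the 55 genes. Its normalized counts were 3845, 3330 and 3464 in control, 2142, 1423 and 1603 in CK666 and 1846, 2069 and 2159 in CytoD. Both drug groups lay below control, at -1.04 (SE 0.16, adjusted p 3.57e-10) and -0.81 (SE 0.16), and the CK666 call was lost without CK666 replicate 2 (-0.92) or 3 (-0.98) or control replicate 1 (-0.98). In the second experiment it fell from 1497, 2447 and 2008 in siControl to 509, 434 and 425 in siArp4 (-2.12, SE 0.22) and 108, 113 and 123 in siArp4+CK666 (-4.11, SE 0.23), with no overlap. Cdc20 shares 53 exon bases with Elovl1 on the other strand (mean 1194 normalized counts), and these libraries were not stranded.

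Pttg1, which encodes securin, the inhibitor that separase must lose before sister chromatids part, departed from the set. It had 284, 272 and 269 normalized counts in control, 693, 334 and 416 in CK666 and 263, 287 and 326 in CytoD. All CK666 libraries lay above control (0.81, SE 0.25, adjusted p 0.00398), by less than the fold minimum, and CytoD overlapped control (0.08, SE 0.25, adjusted p 0.828). Without CK666 replicate 1, the highest library, the CK666 value was 0.45 (adjusted p 0.0214), and without CK666 replicate 2 it was 1.02 and was called. Without CytoD replicate 3 the CytoD value was -0.0048 (adjusted p 0.992), and with the length trend removed it was -0.0605. In the Arp4 experiment the siControl libraries ranged from 360 through 595 to 1334, and siArp4 had 478, 477 and 396, inside that range. The siArp4+CK666 libraries had 304, 422 and 553, of which replicate 1 lay below it. The values were -0.76 (SE 0.44, adjusted p 0.174) and -0.84 (SE 0.44, adjusted p 0.117). Without siControl replicate 2, the highest library, they were -0.09 and -0.17, and without siControl replicate 1 they were -1.10 and -1.18 and were called.

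Separase itself, Espl1, fell with both drugs, from 1656, 1762 and 2007 in control to 492, 1079 and 671 in CK666 and 724, 778 and 754 in CytoD (-1.28, SE 0.23, and -1.27, SE 0.23). In the second experiment it had 801, 736 and 930 in siControl, 253, 467 and 164 with siArp4 and 49.7, 312 and 36.9 with siArp4+CK666. The knockdown groups were spread widely but lay under siControl, and only the latter was called (-1.48, SE 0.68, adjusted p 0.0745, and -2.63, SE 0.68, adjusted p 5.13e-04). Without siArp4+CK666 replicate 2 that value was -4.25, and the call was lost without siControl replicate 1 or 2 and with edgeR (adjusted p 0.0230). The siArp4 value was called without siArp4+CK666 replicate 2 (adjusted p 8.03e-04) and when the contrast's groups were fitted alone (adjusted p 0.00129). Ube2c, the ubiquitin carrier of the anaphase-promoting complex, and Sgo1, which guards centromere cohesin, were not called with CK666 (-0.58 and -0.48) and were called with siArp4+CK666 (-3.89 and -4.11).

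**Figure D3:**
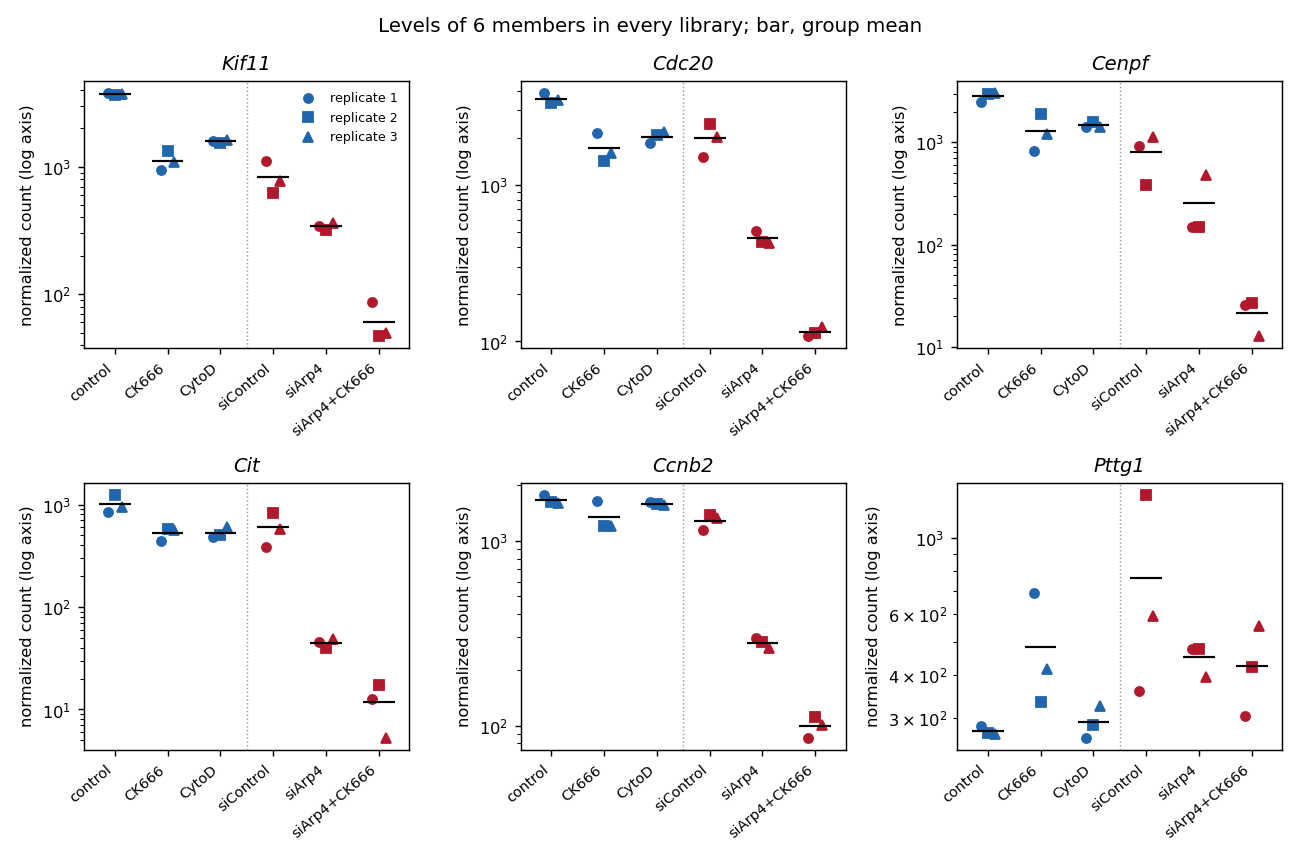
Normalized counts (y axis, log scale) of 6 genes in the 6 groups, 1 point per library with a symbol for each replicate number and a bar at the group mean. Blue marks the first experiment and red the second, and levels are comparable within an experiment. Kif11, Cdc20, Cenpf and Cit step down in both experiments, Ccnb2 was called lower in the siArp4 groups and in neither drug group, and Pttg1 is higher with CK666 and has siControl libraries from 360 to 1334.

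The 10 mitotic kinesins were the group with the largest share called with CK666, 9 of 10, with 5 of 10 for CytoD, 8 of 10 for siArp4 and 10 of 10 for siArp4+CK666. Kif11 (ENSMUSG00000012443.4, chromosome 19 from 37376403 to 37421859, plus strand, GRCm38), the motor that separates the spindle poles, had 3780, 3643 and 3720 normalized counts in control, 942, 1326 and 1081 in CK666 and 1604, 1548 and 1622 in CytoD. The 3 groups did not overlap, with CK666 lowest (-1.73, SE 0.13, adjusted p 9.99e-40) and CytoD between (-1.22, SE 0.13, adjusted p 3.65e-20). After transfection Kif11 had 1115, 623 and 767 in siControl, 341, 322 and 361 with siArp4 and 86.7, 46.7 and 49.5 with siArp4+CK666. Again no group overlapped another (-1.29, SE 0.30, and -3.78, SE 0.32).

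Kif2c, which takes microtubules off wrongly attached kinetochores, had 1505, 1381 and 1513 in control, 656, 700 and 655 in CK666 and 684, 806 and 786 in CytoD (-1.13, SE 0.11, and -0.95, SE 0.11). It fell from 609, 826 and 623 in siControl to 225, 190 and 200 with siArp4 and 39.1, 41.0 and 37.9 with siArp4+CK666, and the groups were far apart (-1.74, SE 0.21, and -4.12, SE 0.24). Kif18a, which damps chromosome movement at the plate, fell with both drugs, from 803, 765 and 764 in control to 357, 401 and 324 in CK666 (-1.11, SE 0.14) and 313, 283 and 244 in CytoD (-1.47, SE 0.14). With siArp4 it had 126, 143 and 162 against 276, 106 and 153 in siControl, overlapping groups with a value of -0.32 (SE 0.37, adjusted p 0.551) that turned to 0.14 without siControl replicate 1. In siArp4+CK666 it had 82.5, 66.8 and 53.8 (-1.40, SE 0.38, adjusted p 0.00101), called but not without siControl replicate 1 (-0.94) or siArp4+CK666 replicate 2 or 3, nor with edgeR (adjusted p 0.0124). The CK666 value was -0.97, and not called, with the length trend removed. Kif20b, a motor of late cytokinesis, had 2081, 1982 and 1898 in control, 646, 673 and 720 in CK666 (-1.55, SE 0.14) and 1046, 843 and 730 in CytoD (-1.19, SE 0.14). In siControl it had 345, 269 and 397, in siArp4 160, 116 and 180 (-1.15, SE 0.26) and in siArp4+CK666 46.5, 43.9 and 42.2 (-2.93, SE 0.28), and the siArp4 call was lost without siArp4 replicate 2 (-0.98). Kif20a and Kif4 share 1271 and 832 exon bases with Cdc23 (mean 1376) and Pdzd11 (mean 980) on the other strand, so their values are uncertain, and Kif22 and Kif4 have annotated pseudogene copies.

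Of the 8 centromere and kinetochore genes 3 were called lower with CK666, 2 with CytoD, 6 with siArp4 and 8 with siArp4+CK666. The drug medians of -0.81 and -0.87 lay short of the fold minimum, so the drug counts depend on it. With no minimum 7 genes were lower with each drug at adjusted p below 0.01, against 14.7% and 16% of all genes. In 7 genes CK666 did not overlap control and in 8 CytoD did not, against 23.4% and 30% of all genes. Nuf2, a rod of the complex that grips microtubules, had 2503, 2363 and 2392 in control, 881, 809 and 801 in CK666 and 1408, 1391 and 1404 in CytoD. CK666 lay far below CytoD, with values of -1.54 (SE 0.09, adjusted p 1.04e-68) and -0.79 (SE 0.08). In transfected cells Nuf2 had 1159, 835 and 1098 in siControl, 457, 444 and 409 with siArp4 and 60.3, 73.5 and 54.8 with siArp4+CK666, with no overlap (-1.24, SE 0.20, and -4.03, SE 0.22). Its partner Ndc80 had 1144, 1182 and 1118 in control, 774, 518 and 557 in CK666 (-0.90, SE 0.16) and 546, 574 and 611 in CytoD (-0.99, SE 0.16), then 245, 199 and 252 in siControl, 125, 137 and 130 in siArp4 (-0.83, SE 0.22) and 33.8, 30.5 and 23.2 in siArp4+CK666 (-2.99, SE 0.26). The treated groups lay below their controls each time, and Ndc80 passed the fold minimum in the last of these comparisons and, without CK666 replicate 1, with CK666 (-1.09). With CytoD it was passed without CytoD replicate 3 (-1.04) or control replicate 3 (-1.01).

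Cenpf (ENSMUSG00000026605.14, chromosome 1 from 189640606 to 189688086, minus strand), a large protein of the outer kinetochore that builds up before mitosis, had 2485, 3004 and 3027 in control, 822, 1879 and 1202 in CK666 and 1401, 1588 and 1425 in CytoD. Both drug groups were lower (-1.13, SE 0.24, and -0.95, SE 0.24), and without CK666 replicate 1 the CK666 value was -0.88 and was not called. The CytoD value was called without CytoD replicate 2 (-1.01) or control replicate 1 (-1.04). Cenpf then had 923, 382 and 1122 in siControl, 147, 149 and 475 with siArp4 and 25.4, 26.7 and 12.7 with siArp4+CK666. The siArp4 libraries overlapped siControl (-1.65, SE 0.54, adjusted p 0.00873), and that call was lost without siArp4 replicate 1 or 2, siArp4+CK666 replicate 1 or 2 or siControl replicate 1 or 3, with edgeR (adjusted p 0.0458), with the filter on low counts (adjusted p 0.0101) and with the contrast's groups fitted alone (adjusted p 0.0138). Without siArp4 replicate 3 the value was -2.44. The siArp4+CK666 libraries lay far below both (-5.23, SE 0.57, adjusted p 9.11e-19), which leaves 2.67% of the siControl level.

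Knl1, the scaffold that recruits the checkpoint proteins, shows how much single libraries weighed. It had 2158, 2219 and 1962 in control, 381, 1132 and 913 in CK666 and 938, 896 and 832 in CytoD (-1.39, SE 0.29, and -1.25, SE 0.29), and the CK666 value was -1.05 without CK666 replicate 1. In siControl it had 719, 116 and 345, with siArp4 alone 115, 102 and 169, and with CK666 added 32.8, 29.6 and 15.8. The siArp4 value of -1.61 (SE 0.56, adjusted p 0.0149) was not called, was called without siControl replicate 2 (-2.05) or with the length trend removed (-1.57, adjusted p 0.00264), and was -0.85 without siControl replicate 1, while the siArp4+CK666 value of -3.92 (SE 0.58) was -3.14 without siControl replicate 1. Spc24, the subunit of the Ndc80 complex with the shortest exon length here, had 336, 317 and 354 in control, 340, 121 and 146 in CK666 and 230, 233 and 297 in CytoD. The CytoD value was -0.41 (SE 0.32, adjusted p 0.340). CK666 replicate 1 sat at the control level, and the CK666 value of -0.73 (SE 0.32, adjusted p 0.0612) became -1.32 (adjusted p 1.38e-10) without it. In the second experiment Spc24 fell from 323, 607 and 382 to 148, 151 and 111 (-1.67, SE 0.32) and 65.6, 51.5 and 91.7 (-2.65, SE 0.33).

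All 4 genes of the chromosomal passenger complex, which corrects attachments and later marks the cleavage plane, had negative values in the 4 comparisons with a control, with 2 called for CK666, 3 for CytoD, 3 for siArp4 and 4 for siArp4+CK666. Its kinase Aurkb had 1373, 1440 and 1510 in control, 588, 455 and 485 in CK666 and 624, 622 and 594 in CytoD, and was called with both drugs (-1.501, SE 0.12, and -1.23, SE 0.12). It had 635, 550 and 697 in siControl, 280, 265 and 264 with siArp4 and 67.7, 60.1 and 62.2 with siArp4+CK666, tight groups that did not overlap (-1.22, SE 0.17, and -3.31, SE 0.20). Birc5, which encodes survivin, had 2102, 1960 and 2013 in control, 1172, 722 and 781 in CK666 (-1.18, SE 0.17) and 1208, 1203 and 1339 in CytoD (-0.70, SE 0.17). It then fell from 1024, 2773 and 1658 in siControl to 469, 436 and 372 in siArp4 (-2.09, SE 0.34) and 108, 112 and 124 in siArp4+CK666 (-3.99, SE 0.34), with no overlap. Without siControl replicate 2, the highest library, these values were -1.66 and -3.55.

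Incenp, the scaffold of that complex, had the values nearest 0 of its genes in the siArp4 and siArp4+CK666 comparisons with siControl, though not with the drugs. It had 2761, 2602 and 3010 in control, 1814, 1118 and 1354 in CK666 (-0.97, SE 0.18) and 1066, 1202 and 1353 in CytoD (-1.21, SE 0.18). In siControl it had 903, 2753 and 1178, with siArp4 alone 734, 916 and 637, and with CK666 added 326, 494 and 622. The siArp4 group overlapped siControl (-1.08, SE 0.42, adjusted p 0.0323), and siArp4+CK666 did not (-1.74, SE 0.42, adjusted p 1.78e-04, or 0.0104 and not called with edgeR). Without siControl replicate 2, the highest library, these values were -0.46 and -1.12, and without siControl replicate 1 the siArp4 value was -1.37 and was called. The CK666 value passed the fold minimum without CK666 replicate 1 (-1.17) or control replicate 2 (-1.01).

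Among the 5 genes of spindle assembly and bundling 4 were called lower with CK666, 1 with CytoD, 4 with siArp4 and 5 with siArp4+CK666, and the median of the last was -4.45, the lowest of the 9 groups. Aspm, a spindle pole protein, had 1939, 2441 and 2272 in control, 632, 1036 and 974 in CK666 and 1252, 1357 and 1217 in CytoD (-1.33, SE 0.18, and -0.80, SE 0.18). With the knockdown it fell from 1302, 523 and 520 in siControl to 74.95, 103 and 91.2 with siArp4 and 29.6, 17.2 and 7.38 with siArp4+CK666. The groups were wide apart (-3.13, SE 0.47, and -5.44, SE 0.50, or -4.85 for the latter without siControl replicate 1). Nusap1, which bundles microtubules near chromosomes, had 1622, 1679 and 1653 in control, 840, 761 and 727 in CK666 (-1.09, SE 0.10) and 921, 987 and 976 in CytoD (-0.78, SE 0.10). It then had 965, 819 and 923 in siControl, 231, 210 and 223 in siArp4 (-2.03, SE 0.18) and 36.0, 29.6 and 22.1 in siArp4+CK666 (-4.95, SE 0.23), with no overlap. Nusap1 shares 172 exon bases with Oip5 on the other strand (mean 257).

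Prc1, the bundler of antiparallel microtubules at the midzone, was called with both drugs and not with siArp4, and the difference between the experiments was not tested. It had 5213, 4702 and 5446 in control, 1869, 1911 and 1759 in CK666 and 1985, 1722 and 1972 in CytoD (-1.47 and -1.44, SE 0.10 in both). With 1200, 947 and 1066 in siControl and 674, 518 and 618 in siArp4 it was lower in every library but by less than the fold minimum (-0.83, SE 0.25, adjusted p 0.00414), and siArp4+CK666 had 263, 147 and 173 (-2.46, SE 0.25). Prc1 shares 911 exon bases with Rccd1 on the other strand (mean 89.2). Tpx2, which switches on aurora A at the spindle, had 5872, 6071 and 6242 in control, 3641, 3578 and 3524 in CK666 (-0.76, SE 0.07) and 3331, 3196 and 3191 in CytoD (-0.90, SE 0.07). These tight groups did not overlap control, though neither value reached the fold minimum. Tpx2 then had 2767, 2145 and 2141 in siControl, 1011, 951 and 1039 in siArp4 (-1.23, SE 0.16) and 337, 307 and 306 in siArp4+CK666 (-2.89, SE 0.17).

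The 4 cytokinesis genes tie mitosis to the contractile actin ring. Of them 2 were called with CK666, 2 with CytoD, and all 4 with siArp4 and siArp4+CK666. Anln encodes anillin, the scaffold that links actin, myosin and septins at the ring, and had 8311, 7842 and 8388 in control, 2523, 3234 and 3062 in CK666 (-1.48, SE 0.12) and 3610, 3317 and 3795 in CytoD (-1.19, SE 0.12). In siControl it had 2350, 1156 and 1628, in siArp4 643, 559 and 710 (-1.42, SE 0.40) and in siArp4+CK666 233, 148 and 73.8 (-3.50, SE 0.40). No treated library reached a control library, and the siArp4 call was lost without siArp4 replicate 1 or 2 (adjusted p 0.0126 and 0.0196) and with edgeR (adjusted p 0.0204). Ect2, the exchange factor that activates RhoA at the equator, had 1898, 1836 and 1896 in control, 602, 758 and 761 in CK666 (-1.41, SE 0.12) and 847, 854 and 924 in CytoD (-1.10, SE 0.12). It had 624, 184 and 423 in siControl, 131, 129 and 182 in siArp4 (-1.48, SE 0.47, adjusted p 0.00674) and 83.5, 44.8 and 32.7 in siArp4+CK666 (-2.94, SE 0.48). The siArp4 call of Ect2 was lost without any 1 siArp4 library, siControl replicate 1 or 3 or siArp4+CK666 replicate 2, and with edgeR (adjusted p 0.0363).

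Cit (plus strand of chromosome 5, 115845278 to 116008947, ENSMUSG00000029516.19) encodes citron kinase, which acts at the midbody at the end of division, and had the lowest level per kilobase of the set in control, 61.4 normalized counts per kb. It had 839, 1243 and 944 in control, 440, 582 and 565 in CK666 and 483, 502 and 605 in CytoD. Both drug groups lay below control, each at -0.93 (SE 0.18), just short of the fold minimum, which was passed without control replicate 1 (-1.05 in both) and, for CytoD, without CytoD replicate 3 (-1.04). Among transfected cultures Cit had 389, 834 and 583 in siControl, 45.5, 39.95 and 49.1 with siArp4 and 12.7, 17.2 and 5.27 with siArp4+CK666. These were the deepest falls of the set, to 7.46% of siControl (-3.74, SE 0.37, adjusted p 1.16e-21) and to 1.96% (-5.67, SE 0.43, adjusted p 1.24e-37). Its printed promoter window held neither element, and the RefSeq start it precedes lies inside the gene as GENCODE annotates it.

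Of the 7 genes of condensin and chromosome structure 6 were called lower with CK666, 3 with CytoD, 5 with siArp4 and 7 with siArp4+CK666. Mki67, the Ki-67 protein that coats mitotic chromosomes, had 6550, 8555 and 7880 in control, 1326, 2601 and 2215 in CK666 and 4166, 4094 and 3671 in CytoD. The CK666 libraries lay below all CytoD libraries, with -1.90 (SE 0.21, adjusted p 4.88e-18) and -0.95 (SE 0.21, called without control replicate 1 at -1.05). With the siRNAs Mki67 had 2537, 1324 and 1453 in siControl, 448, 438 and 494 in siArp4 (-1.95, SE 0.30) and 121, 76.3 and 84.3 in siArp4+CK666 (-4.24, SE 0.31), with no overlap. Smc4, a condensin ATPase, had 4130, 4040 and 3974 in control, 1985, 2448 and 2463 in CK666 (-0.82, SE 0.11) and 2160, 2148 and 1935 in CytoD (-0.96, SE 0.11). It had 2163, 703 and 1142 in siControl, 1157, 767 and 1026 with siArp4 and 509, 413 and 365 with siArp4+CK666. The siArp4 libraries lay inside the siControl range (-0.44, SE 0.38, adjusted p 0.398, turning to 0.09 without siControl replicate 1), and siArp4+CK666 lay below it (-1.64, SE 0.38, adjusted p 1.14e-04). Its partner Smc2 was at -0.65 with siArp4 and -1.52 with siArp4+CK666, while the condensin subunits Ncapg, Ncapd2 and Ncaph were called with siArp4 (-1.78, -1.30 and -1.287). Ncapg shares 944 exon bases with Lcorl on the other strand (mean 357), so its value is uncertain.

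Taking the 4 comparisons with a control, 13 genes were called lower in all 4, 27 in 3, 12 in 2, 2 in 1 and 1, Pttg1, in 0. The 2 genes called once were Ndc80 and Smc4, both in siArp4+CK666. Of the 13503 genes tested in all 4, 0.4% were called lower in all 4 and 1.72% in 3. In 45 of the 55 genes the treated libraries lay below all control libraries in all 4 comparisons, against 3.47% of those genes. The comparisons share control libraries within each experiment, so these counts do not rest on 4 independent comparisons.

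The effect of CK666 was set beside the same drug in knockdown cells with an interaction, the CK666 effect in siArp4 cells minus that in untransfected cells, over all 18 libraries. Of the 55 genes 10 were called lower and 0 higher, against 4.4% of all 13511 genes called in either direction (2.51% lower and 1.89% higher). The median was -0.61, beside -0.03 for all genes tested. The 3 lowest were Cenpf (-2.45, SE 0.65, adjusted p 0.0027), Cdc25c (-1.89, SE 0.32, adjusted p 1.45e-07) and Nusap1 (-1.84, SE 0.21, adjusted p 1.70e-16), for which CK666 left 45.8%, 78.4% and 47.0% of control in untransfected cells and 8.41%, 21.1% and 13.2% of siArp4 in knockdown cells. Transfection, the experiment and the knockdown cannot be told apart in this contrast, because CK666 was given to untransfected cells in one experiment and to siArp4 cells in the other.

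The control siRNA group started from lower levels than the untransfected control. In a fit of all 18 libraries 33 of the 55 genes were called lower in siControl than in control and 1 higher, against 24.1% of all 14491 genes called in either direction (10.1% lower and 14.1% higher), with a median of -1.18. The lowest were Kif20b, Knl1 and Ndc80. With all 18 libraries scaled together Kif20b had 2018, 1932 and 1851 normalized counts in control and 343, 277 and 398 in siControl (-2.51, SE 0.18, adjusted p 1.06e-43), and Ndc80 had 1110, 1152 and 1090 against 244, 204 and 253 (-2.25, SE 0.16, adjusted p 1.39e-43). Neither pair overlapped. Knl1 had 2093, 2164 and 1913 against 717, 119 and 345 (-2.38, SE 0.47, adjusted p 1.96e-06), and the gene called higher was Pttg1, with 276, 265 and 262 against 358, 1371 and 596 (1.53, SE 0.38, adjusted p 2.27e-04). With the length trend removed 0 genes were called higher. Experiment and transfection cannot be told apart in this comparison.

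Gene length followed the differences between some replicates. In siControl replicate 2, against the mean of the other siControl libraries, the 27 shortest members (exon length up to 4934 bases) had a median log2 ratio of 0.16 and the longer ones -0.43. CK666 replicate 1 had 0.32 and -0.13, siArp4+CK666 replicate 3 had 0.07 and -0.45, and siControl replicate 1 went the other way with -0.25 and 0.26. Over the 55 genes the slope of the log2 ratio per doubling of exon length was -0.55 in siArp4+CK666 replicate 3, -0.45 in siControl replicate 2, -0.41 in CK666 replicate 1 and 0.37 in siControl replicate 1, and CK666 replicate 2 came next with 0.30. Over 13078 genes siControl replicate 1 had the steepest slope, 0.39, beside -0.27 in siControl replicate 2. Pearson's r over the 55 genes was -0.58, -0.42, -0.63 and 0.395 in the first 4 of these libraries, and it was of like size in libraries with a shallow slope, such as control replicates 1 and 2 (-0.53 and 0.52, with slopes of -0.10 and 0.09). These are descriptions within single libraries, in which genes are not independent, and a library that departs also shifts the ratios of its group mates. Short genes such as Pttg1, Birc5 and Incenp were high in siControl replicate 2 and long ones such as Knl1 and Cenpf were low. Other genes went against the trend there, such as Bub1 (4354 bases, -0.87), Ccnb1 (4217 bases, -0.85) and Cit (16417 bases, 0.78). With the trend over length removed from every library the counts of genes called lower were 33 for CK666, 25 for CytoD, 45 for siArp4 and 54 for siArp4+CK666, and the medians were -1.09, -0.97, -1.57 and -3.21.

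**Figure D4:**
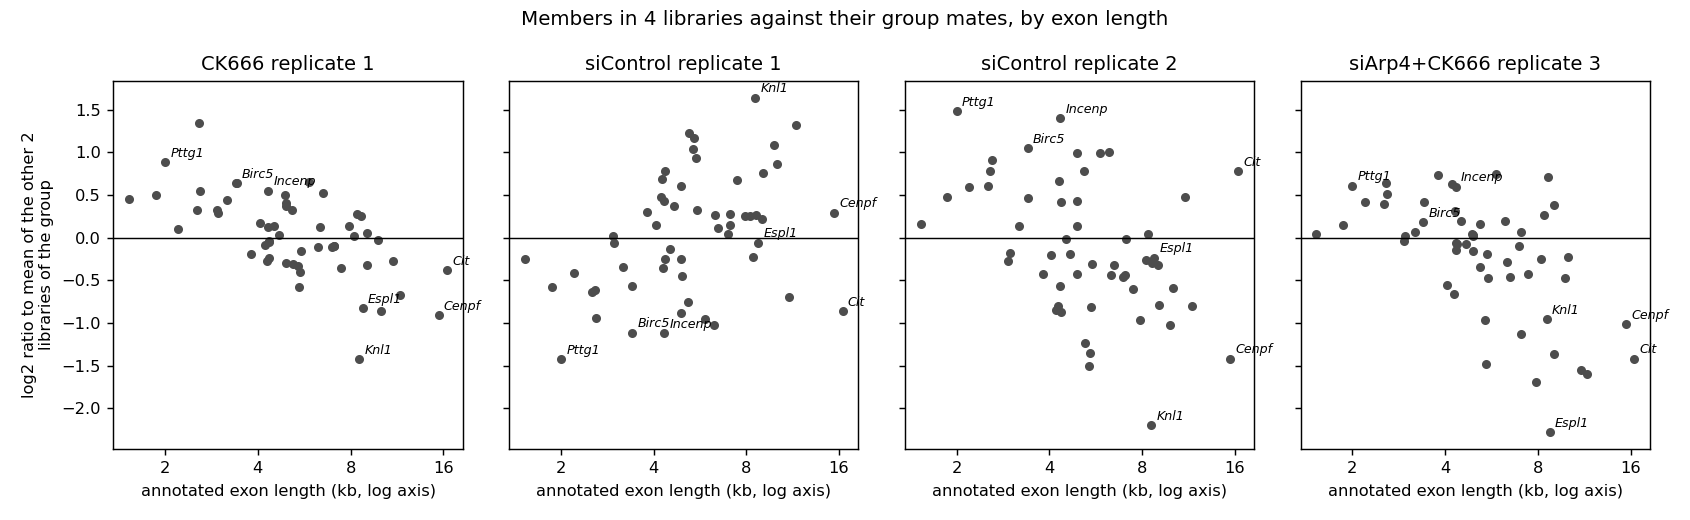
Log2 ratio of each of the 55 genes in 1 library to the mean of the other 2 libraries of its group (y axis) against annotated exon length (x axis, kb, log scale), for CK666 replicate 1, siControl replicate 1, siControl replicate 2 and siArp4+CK666 replicate 3. Longer genes lie higher in siControl replicate 1 (slope 0.37) and lower in the other 3 panels (slopes of -0.41, -0.45 and -0.55).

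Other genes of the cell cycle were read for context from lists of their own. Of 73 tested genes of a second list of mitotic genes 31 were called lower with CK666, 29 with CytoD, 41 with siArp4 and 55 with siArp4+CK666, with medians of -0.91, -0.93, -1.07 and -1.85, and 0, 0, 2 and 2 were called higher. The lowest with siArp4+CK666 were Sapcd2 (-5.43), Iqgap3 (-5.15) and Depdc1b (-4.86), and those higher were Kif2a (1.41), a kinesin also used outside mitosis, and Mis12 (1.02). The 26 subunits of the anaphase-promoting complex and of cohesin, which are used through the cell cycle, had medians of -0.13, -0.14, -0.16 and -0.16, with 1, 0, 2 and 2 called lower and 0, 0, 0 and 1 called higher. Anapc2 had the lowest value in that list with siArp4 (-1.16) and siArp4+CK666 (-1.41). For all genes tested the shares called lower were 6.06%, 4.32%, 9.49% and 12.4% in the same order of comparisons. Those called higher were 4.89%, 4.8%, 6.69% and 8.06%.

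Genes of DNA replication, which peak before mitosis, ranked differently across the groups. Of 40 genes 26 were called lower with CK666, 23 with CytoD, 7 with siArp4 and 27 with siArp4+CK666. Of all genes tested 6.06%, 4.32%, 9.49% and 12.4% were called lower in that order. The medians of the 40 were -1.11, -1.15, -0.69 and -1.22. With no fold minimum 13 of them were lower with siArp4 at adjusted p below 0.01, against 2026 of all 15415 genes tested. In 24 of them the siArp4 libraries lay below all siControl libraries, against 21.1% of all genes. Ccne2 (-2.89) and Cdc6 (-2.45) fell most with CK666, and Cdt1, a licensing factor, had 0.62 there. In the interaction 5 of these 40 genes were called higher and 0 lower, with a median of 0.41, while the 55 mitosis genes had 10 lower, 0 higher and a median of -0.61. Of all genes tested 1.89% were called higher in the interaction and 2.51% lower.

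Of 22 regulators of mitotic transcription 5, 7, 4 and 6 were called lower in the 4 comparisons with a control and 0 higher. The order is CK666, CytoD, siArp4 and siArp4+CK666. Of all genes tested 6.06%, 4.32%, 9.49% and 12.4% were called lower. The medians of the 22 were -0.08, -0.68, -0.52 and -0.15, and 10, 4, 8 and 10 of them had positive values. With CK666 E2f7 (-2.76) had the lowest value and Rb1 (0.61) the highest, and E2f8 was at -2.31. Foxm1, an activator of late cell cycle genes, had 3078, 2940 and 2839 normalized counts in control, 982, 1544 and 1408 in CK666 (-1.17, SE 0.16) and 1389, 1611 and 1393 in CytoD (-1.01, SE 0.16), with no overlap. It fell from 853, 469 and 522 in siControl to 234, 235 and 284 in siArp4 (-1.29, SE 0.36) and 111, 44.8 and 59.0 in siArp4+CK666 (-3.11, SE 0.37). Mybl2, which joins the MuvB complex, was called each time, at -1.42, -2.25, -1.30 and -2.75 in the same order. Cdkn1a, the p21 inhibitor of cyclin kinases, was at 4885 to 5062 in control, 5202 to 5532 in CK666 and 4962 to 5284 in CytoD. Its drug values were 0.10 and 0.03 (adjusted p 0.29 and 0.753), and with siArp4 it was lower than siControl by less than the fold minimum (-0.78, SE 0.17, adjusted p 3.68e-05).

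**Figure D5:**
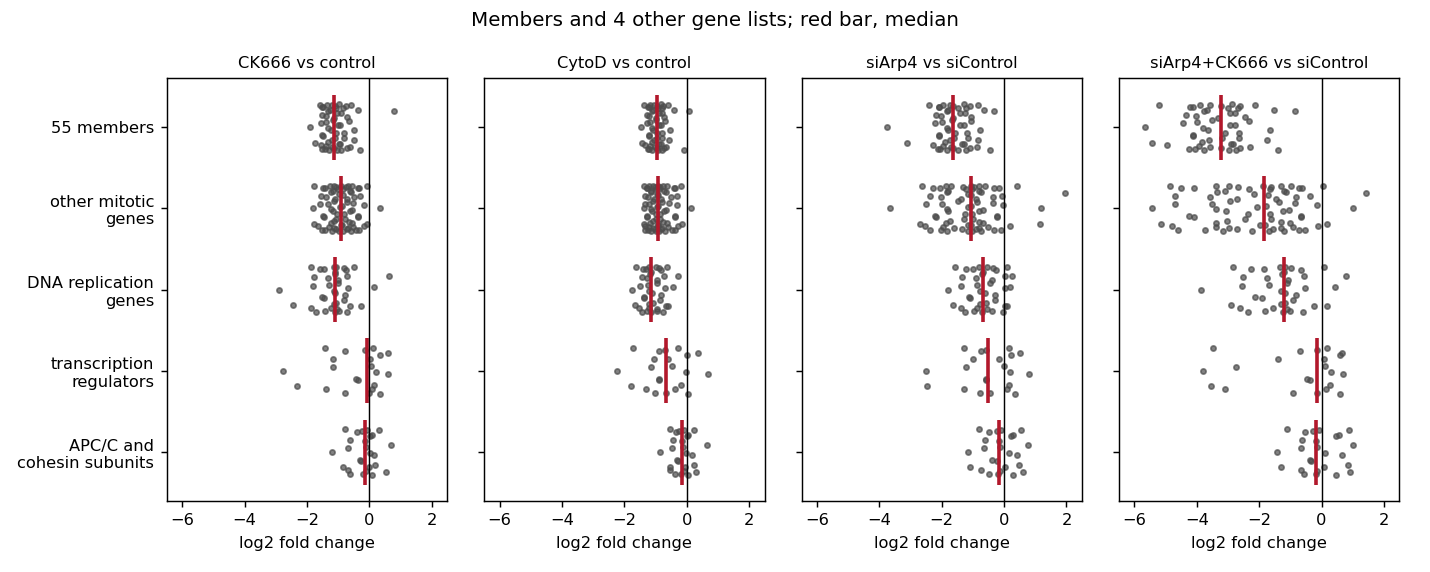
Log2 fold changes (x axis) in the 4 comparisons with a control for the 55 genes and for 4 other lists (y axis), 1 point per gene and a red bar at the median. The members have the lowest median of the 5 lists in siArp4 (-1.63) and siArp4+CK666 (-3.23), while the subunits of the anaphase-promoting complex and cohesin stay near 0 (-0.16 in both).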

How the data were processed

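RNA-seq was measured in 18 libraries, 3 per group. Libraries were unstranded. Per the labels and methods, the authors quantified transcripts with Salmon 1.2.1 (GRCm38, GENCODE annotation) and deposited estimated counts per gene without scaling, and how transcripts were summed to genes is not given in the sources used here. Symbols came from GENCODE vM21 on the same build, which matched 54094 identifiers, while 253 did not match. Counts were rounded, and DESeq2 1.42.0 (R 4.3.3) Wald tests were fitted to the whole table, with no gene removed and no shrinkage. Within an experiment its 9 libraries entered one fit by group, and all 18 entered the fit for the interaction and for siControl against control. All tests were two-sided, with Benjamini-Hochberg adjustment over all genes tested. Normalized counts were divided by the size factors of their own experiment. Exon length is the merged annotated exons of a gene. Replicates were distinct libraries (chi-square per degree of freedom at least 6.79).

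The members and the other lists were chosen with earlier results of these data known, so no test was run over a list. Members are named with values in every library by a rule. It takes, in each of the 9 roles, the lowest log2 fold change with CK666, the lowest with siArp4+CK666 and the smallest mean size over the 4 comparisons with a control. It adds members called in CK666 against CytoD, in siArp4+CK666 against siArp4, in siControl against control or in the interaction (the 3 most changed in each direction where over 6), members called higher against a control, and members with a mean normalized count under 10. Of other lists it takes up to 3 genes at each end with a mean of at least 50, and Foxm1, Mybl2, Cdkn1a and Actl6a. Others named were chosen after their values were seen. The tests were tested on simulated counts with known changes before use, and edgeR recovered fewer of them than DESeq2 in the siArp4 comparison. Alternatives were TMM scaling, edgeR 4.0.16 quasi-likelihood tests, a filter of at least 10 counts in at least 3 libraries, no fold minimum, a test against a fold change of 2, each library left out, a replicate block, fits of the contrast's groups alone and, chosen after seeing the data, removal of the length trend.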

Additional observations from a re-analysis of the deposited data

Results flagged for a closer look

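In 10 of the 55 genes the effect of CK666 differed between siArp4 cells and untransfected cells, by a test of the difference itself. In each the drop with CK666 was larger in siArp4 cells. The log2 differences were -2.45 for Cenpf, -1.89 for Cdc25c, -1.84 for Nusap1, -1.68 for Ube2c, -1.63 for Sgo1, -1.52 for Nek2, -1.27 for Ndc80, -1.26 for Kif2c, -1.25 for Nuf2 and -1.20 for Ccnb2. They were called at adjusted p values of 0.0027 (Cenpf) down to 1.61e-18 (Nek2), beside 4.4% of all genes called in either direction. Of the 10, Ccnb2, Cdc25c, Nek2, Ube2c, Sgo1 and Ndc80 were not called with CK666 in untransfected cells. Untransfected and siArp4 cells belong to different experiments, so transfection, experiment and knockdown cannot be told apart.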

How the results depend on the processing

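The counts of genes called lower kept within 1.5 times under TMM scaling, the filter on low counts, edgeR, removal of the length trend and fits of the contrast's groups alone. With edgeR they were 34 for CK666, 25 for CytoD, 39 for siArp4, 51 for siArp4+CK666 and 31 for siArp4+CK666 against siArp4. The fold minimum mattered more. A test against a fold change of 2 left 11 genes for CK666, 1 for CytoD, 14 for siArp4, 13 for siArp4+CK666 against siArp4, 12 for siControl against control and 0 for the interaction. For siArp4+CK666 against siControl, only Espl1, Kif18a, Incenp and Smc4 of the named members lost the call under that test. With no minimum 52 genes were lower with CytoD and 14 differed between CK666 and CytoD. Leaving out 1 library at a time gave 31 to 37 genes for CK666, 24 to 28 for CytoD, 0 to 1 for CK666 against CytoD, 39 to 45 for siArp4 and 53 to 54 for siArp4+CK666. Replicate numbers did not pair the libraries (3 of 18 same-number pairs had a correlation over 0.1). With the replicate block the counts were 35, 25, 46 and 54 for the 4 comparisons with a control and 1 for CK666 against CytoD, no gene was called higher in siControl than in control, and Espl1 was called with siArp4 (-1.78, adjusted p 0.00456) and had -3.30 with siArp4+CK666. Signs turned for Pttg1 with CytoD, which ranged from -0.0048 to 0.15 with 1 library left out and was -0.0605 with the length trend removed, and with siArp4 for Kif18a (-0.59 to 0.14) and Smc4 (-0.76 to 0.086). Of 1972 alternative values of the 29 named members 1835 kept direction and call, 89 lost the call, 44 gained it and 4 changed sign. Causes of these changes were not tested, and 3 libraries a group limit the precision.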
